A study of Homo sapiens with 20 samples.

Results

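The NRF2 antioxidant response was examined as 10 genes chosen by name from what is known of the pathway: NFE2L2, KEAP1, HMOX1, NQO1, GCLC, GCLM, TXNRD1, SRXN1, GPX1 and CAT. The rule lists them by name and sets no threshold on a measured value, although the choice was made with earlier results of these data known. All 10 were among the 27697 genes tested. Poly(A) RNA was sequenced from NGP cells, a human neuroblastoma cell line, in 10 replicates given nutlin-3 as a racemic mixture at 8 µM and in 10 replicates given its vehicle, ethanol. Nutlin-3 occupies the p53 pocket of MDM2, the ubiquitin ligase that keeps p53 low, and so lets p53 accumulate. All samples came from 1 cell line grown in 6-well flasks, and the sources used here do not give the time of treatment. The comparison asks how the RNA of these genes differed between nutlin and vehicle cells.

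NRF2, the protein of NFE2L2, is a transcription factor that is made and degraded continuously in unstressed cells. KEAP1 holds it in the cytoplasm and hands it to a CUL3 and RBX1 ubiquitin ligase, and oxidants or electrophiles that modify KEAP1 let NRF2 reach the nucleus. There, paired with a small MAF protein, it binds antioxidant response elements and raises genes for quinone reduction, heme breakdown, glutathione synthesis and thioredoxin recycling. Much of this control acts on the NRF2 protein and is not visible in RNA. GPX1 and CAT, which remove peroxides, are less strictly NRF2 targets and are regulated by other routes as well.

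The core of the antioxidant response element, TGACNNNGC, was looked for on both strands of the RefSeq promoters of GRCh38.p14, each taken from 250 bases before to 50 bases after a start site. It was held by 4687 of 35116 promoters (13.3%). Promoter entries were matched for 9 of the 10 genes, with 12 promoters in all. The core was present in 4 of these promoters, belonging to GCLM, TXNRD1 and KEAP1. These matches are shown since the core is the known recognition sequence of NRF2 with a small MAF partner. Capitals mark the core or its reverse complement, and every sequence is read along the strand of the gene, with 10 bases on either side where they precede the start site.
GCLM, chr1:93909446-93909474, minus strand, core starting 34 bases before the start site: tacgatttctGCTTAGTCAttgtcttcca
TXNRD1, chr12:104215670-104215698, plus strand, core starting 99 bases before the first start site: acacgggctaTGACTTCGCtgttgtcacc
TXNRD1, chr12:104215761-104215779, plus strand, core starting 8 bases before the first start site: gcgtccttcgGCTCCGTCA
TXNRD1, chr12:104286920-104286948, plus strand, core starting 102 bases before the second start site: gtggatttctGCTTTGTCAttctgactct
KEAP1, chr19:10502807-10502835, minus strand, core starting 54 bases before the start site: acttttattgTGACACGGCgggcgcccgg
KEAP1, chr19:10502784-10502812, minus strand, core starting 31 bases before the start site: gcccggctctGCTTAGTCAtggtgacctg

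The same 9 letters, GCTTAGTCA, were found before the start site of GCLM and before an inner start site of KEAP1. Both KEAP1 matches belong to this inner start site and lie within the span of the gene. The KEAP1 promoter at the outer start site (chr19:10503307-10503606) held 0 matches. In GENCODE 44 the first TXNRD1 match lay outside all transcripts of the gene. Each of the other 5 touched an exon of at least 1 transcript, by 1 base only for GCLM and for the second TXNRD1 match, and both KEAP1 matches lay in an intron of 3 further transcripts. A match describes letters only, and genes without a match in this window may be bound elsewhere.

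Of the 10 genes, 4 were significantly differentially expressed (SDE) and higher in nutlin cells at a false discovery rate (FDR) of 5% (HMOX1, GPX1, NFE2L2 and GCLC), and 4 were SDE and lower (CAT, SRXN1, TXNRD1 and KEAP1). NQO1 and GCLM did not pass. The genes of the response thus did not move in one direction. Across all 27697 genes 32.3% were SDE and higher and 26.5% SDE and lower, and among the 15168 genes averaging 1 CPM or more (CPM being counts scaled to a library of 1000000), a class that holds all 10, these shares were 34.8% and 45.3%. In either direction 58.8% of all genes and 80.2% of those of at least 1 CPM were SDE, against 8 of the 10. A share of 4 in 10 either way was therefore near the background. With a fold change of at least 1.5 added to the test, HMOX1 and GPX1 stayed among the higher genes and CAT among the lower ones, against 23.2% and 12.8% of all genes and 18.8% and 20.5% of those of at least 1 CPM. For 7 of the 10 genes the CPM ranges of nutlin and vehicle samples did not overlap, which held for 28.8% of all genes and 49% of those of at least 1 CPM. Once also scaled by transcript length, as TPM, the ranges of KEAP1, TXNRD1 and SRXN1, which are among these 7, overlapped. The median log2 fold change (LFC) was -0.12 over the 10 genes, -0.08 over the genes of at least 1 CPM and 0.19 over all genes tested. All LFC, standard errors (SE) and adjusted p-values below are from the edgeR quasi-likelihood F-test with Benjamini-Hochberg adjustment over all genes tested.

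**Figure D1:**
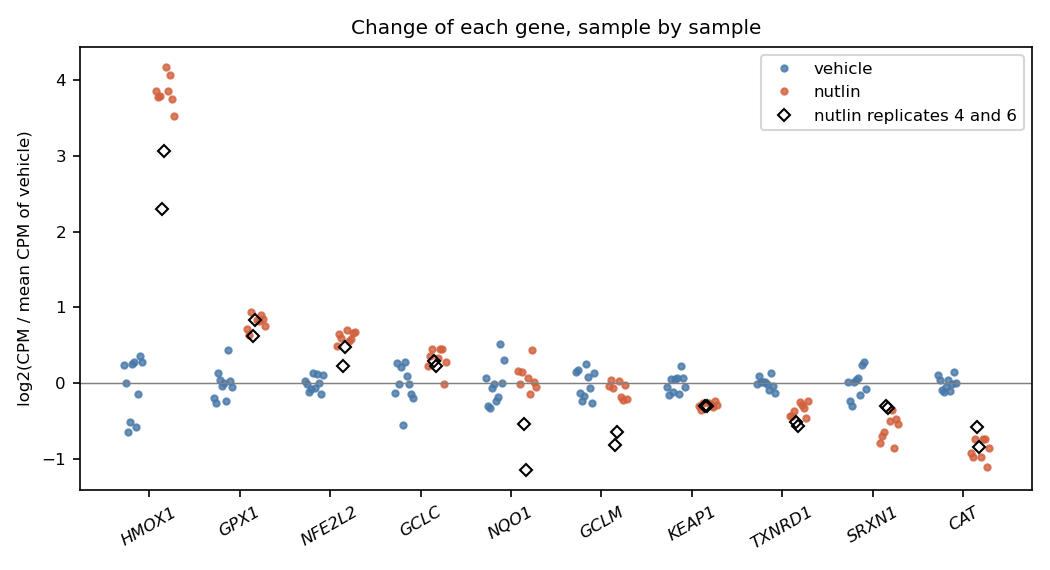
CPM of each of the 10 genes in each of the 20 samples, as log2 of the ratio to the mean of the 10 vehicle samples (vertical axis), with vehicle points in blue and nutlin points in orange and nutlin replicates 4 and 6 as open diamonds. HMOX1 stands apart by the size of its difference, with an LFC of 3.70, and CAT lies lowest, with an LFC of -0.84.

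The libraries held between 14455477 and 19532971 estimated counts. Known targets of p53 were read as a check of the treatment. CDKN1A, a cell cycle inhibitor, had a median of 35.4 CPM in vehicle and 1704 CPM in nutlin cells, with no overlap, and MDM2 had an LFC of 4.51. Of 8 neuroblastoma markers all were measured at a mean of at least 1 CPM, and their summed TPM ranged from 2990 to 3656 in vehicle and from 2664 to 3260 in nutlin samples. Counts on transcripts that could not be matched to the annotation made up 3.22% to 3.34% of a vehicle library and 4.05% to 4.29% of a nutlin library. Where a gene was lower, fewer cells with the RNA and less RNA per cell cannot be told apart in these bulk samples.

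NFE2L2 (ENSG00000116044, chr2:177218667-177392756, minus strand, GRCh38), the gene for NRF2 itself, was higher after nutlin. Its level ran from 41.1 CPM through a median of 45.1 to 49.6 CPM in vehicle samples and from 53.02 through 68.2 to 73.3 CPM in nutlin samples. Every nutlin sample was above every vehicle sample. The LFC was 0.57 ± 0.050 (SE, n = 10 and 10, adjusted p = 2.82e-11), a 1.48-fold difference. The span of NFE2L2 overlaps HNRNPA3 on the other strand, an RNA-binding protein gene with a median of 16556 counts in vehicle and 10677 in nutlin samples. The library preparation kept the strand, whereas the strand setting of the quantification is not given in the sources used here. An overlapping long non-coding RNA gene on the same strand, ENSG00000213963, had medians of 35.7 counts in vehicle and 66.1 in nutlin samples. The part of overlapping genes in the NFE2L2 counts was not tested.

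KEAP1 (ENSG00000079999, chr19:10486125-10503558, minus strand), the adaptor that presents NRF2 for degradation, was modestly lower. Vehicle samples held 113 to 148 CPM with a median of 126, and nutlin samples 98.3 to 106 CPM with a median of 103. No nutlin sample reached the lowest vehicle sample in CPM. Nutlin samples were close to each other, with an SD of 2.27 CPM against 10.8 CPM in vehicle. In TPM the groups overlapped, with 55.2 in the lowest vehicle sample and 60.3 in the highest nutlin sample. The LFC was -0.29 ± 0.040 (adjusted p = 1.98e-07), a 1.22-fold lower level.

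The factor and its inhibitor thus changed in opposite directions, and their levels came closer together. The ratio of NFE2L2 to KEAP1 in TPM, which are counts scaled by transcript length and library size, was 0.291 ± 0.0402 (SD, n = 10) in vehicle and 0.552 ± 0.0656 (SD, n = 10) in nutlin samples. The lowest nutlin ratio, 0.466, was above the highest vehicle ratio, 0.359. The mean log2 ratio differed by 0.93 (two-sided permutation test with 100000 resamples, p = 2e-05, adjusted p = 4e-05 over the 2 ratios computed). KEAP1 RNA remained in excess of NFE2L2 RNA in all 20 samples on this scale.

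HMOX1 (ENSG00000100292, chr22:35380361-35394214, plus strand) showed the largest difference of the 10 genes. It encodes heme oxygenase 1, the inducible enzyme that opens heme into biliverdin, iron and carbon monoxide. Vehicle samples held 0.731 to 1.46 CPM with a median of 1.24, which rested on 11.05 to 24.2 counts a sample. Nutlin samples held 5.61 to 20.5 CPM with a median of 15.7, on 82.0 to 310.2 counts. The LFC was 3.70 ± 0.19 (adjusted p = 2.05e-16), a 13.0-fold difference with no overlap. Of the genes of at least 1 CPM, 172 (1.13%) were SDE and higher by as much or more. The HMOX1 level was also, relative to its mean, the most spread of the 10 within nutlin samples, with an SD of 4.402 CPM around a mean of 14.7.

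GPX1 (ENSG00000233276, chr3:49357174-49358605, minus strand), the cytosolic selenium-dependent glutathione peroxidase, was the most abundant of the 10 in TPM in both conditions. Its CPM ran from 93.5 through a median of 111 to 152 in vehicle and from 172 through 199 to 215 in nutlin samples. The ranges did not overlap. The LFC was 0.79 ± 0.063 (adjusted p = 3.48e-12), a 1.73-fold higher level, and 13.9% of the genes of at least 1 CPM were SDE and higher by as much or more. The GPX1 pseudogene GPX1P1, whose sequence is close to that of the parent gene, held 2.18 to 8.85 counts in vehicle and 6.77 to 21.6 counts in nutlin samples, against at least 1317 counts for GPX1.

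CAT (ENSG00000121691, chr11:34438934-34472060, plus strand) moved the other way. Catalase, its product, breaks down hydrogen peroxide in peroxisomes without using glutathione. Vehicle samples ran from 24.8 through a median of 27.0 to 29.98 CPM and nutlin samples from 12.5 through 14.9 to 17.99 CPM. All nutlin samples were below all vehicle samples. The LFC was -0.84 ± 0.056 (adjusted p = 4.42e-14), a 1.79-fold lower level, and 11.8% of the genes of at least 1 CPM were SDE and lower by as much or more. Both peroxide-removing enzymes thus differed between conditions in opposite directions.

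TXNRD1 (ENSG00000198431, chr12:104215779-104350307, plus strand) encodes the cytosolic thioredoxin reductase, which passes electrons from NADPH to thioredoxin. Its level was 154 to 185 CPM in vehicle (median 169) and 114 to 144 CPM in nutlin samples (median 128). The CPM ranges did not overlap, whereas in TPM the lowest vehicle sample was at 58.5 and the highest nutlin sample at 63.8. The LFC was -0.38 ± 0.041 (adjusted p = 2.43e-09). SRXN1 (ENSG00000271303, chr20:646615-653200, minus strand) encodes sulfiredoxin, which repairs over-oxidized peroxiredoxins. It held 22.9 to 34.3 CPM in vehicle (median 28.5) and 15.6 to 22.8 CPM in nutlin samples (median 19.6). The CPM ranges of SRXN1 only just failed to meet, and in TPM they overlapped (lowest vehicle sample 8.95, highest nutlin sample 9.36). The LFC was -0.54 ± 0.075 (adjusted p = 3.12e-07). An overlapping read-through gene, ENSG00000270299, held 0 to 107 counts in vehicle and 0 to 149 counts in nutlin samples, so that part of the SRXN1 reads may be assigned to it. With its counts added the LFC of SRXN1 was -0.37.

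GCLC and GCLM are the catalytic and the modifier subunit of glutamate-cysteine ligase, the rate-limiting enzyme of glutathione synthesis. GCLC (ENSG00000001084, chr6:53497341-53616970, minus strand) ran from 9.96 through a median of 14.5 to 17.8 CPM in vehicle and from 14.4 through 18.1 to 20.01 CPM in nutlin samples. The groups overlapped, with 6 of 10 nutlin samples above the highest vehicle sample. The LFC was 0.31 ± 0.080 (adjusted p = 0.00137). This call is uncertain, since 12 of the 14 GENCODE 44 transcripts of GCLC were found in the files and the canonical one was not among them. On the TPM scale the GCLC medians were 17.4 in vehicle and 17.2 in nutlin samples, and with effective length in the model the LFC was 0.02 (adjusted p = 0.931). With coding transcripts alone, by contrast, it was 0.64 ± 0.12 (adjusted p = 6.44e-05), and the coding transcript ENST00000509541 was SDE and higher (LFC 0.61 ± 0.16, adjusted p = 0.00703). The value for GCLC thus depends on which transcripts are counted.

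GCLM (ENSG00000023909, chr1:93885199-93909456, minus strand) ran from 15.4 through a median of 18.6 to 22.0 CPM in vehicle and from 10.5 through 17.0 to 19.1 CPM in nutlin samples. Its LFC of -0.19 ± 0.091 did not pass the test (adjusted p = 0.0735), with a 95% interval from -0.37 to -0.01 before adjustment. Leaving out vehicle replicate 6 or nutlin replicate 7 took it past the threshold (adjusted p = 0.0473 and 0.0493). The TPM ratio of GCLC to GCLM was 1.76 ± 0.376 (SD, n = 10) in vehicle and 1.97 ± 0.414 (SD, n = 10) in nutlin samples, and the difference in mean log2 ratio of 0.17 did not pass (permutation test, p = 0.229, adjusted p = 0.229). Formed from CPM, which are not scaled by length, the ratio was 0.796 ± 0.138 (SD) in vehicle and 1.16 ± 0.266 (SD) in nutlin samples. Its mean log2 differed by 0.53 (permutation test, p = 0.00064). Which of the 2 RNAs was in excess on average in vehicle samples thus depended on the scale. There ENST00000504353, ENST00000510837 and ENST00000514933, none annotated with a coding sequence, held means of 31.3%, 17.6% and 26.0% of GCLC TPM. They rested on medians of 33.3, 27.7 and 22.5 counts. ENST00000467772, also without one, held 49.6% of GCLM TPM on 34.5 counts.

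NQO1 (ENSG00000181019, chr16:69706996-69726668, minus strand) encodes the quinone reductase that is the usual reporter of NRF2 activity. Its level was low, at 4.12 to 7.43 CPM in vehicle (median 5.04) and 2.34 to 6.98 CPM in nutlin samples (median 5.20). The groups overlapped. The LFC was -0.05 ± 0.14 (adjusted p = 0.772), with a 95% interval from -0.32 to 0.22. A 1.5-fold difference in either direction lay outside this interval. No difference was thus detectable for NQO1, whereas HMOX1, also an NRF2 target, was 13.0-fold higher.

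**Figure D2:**
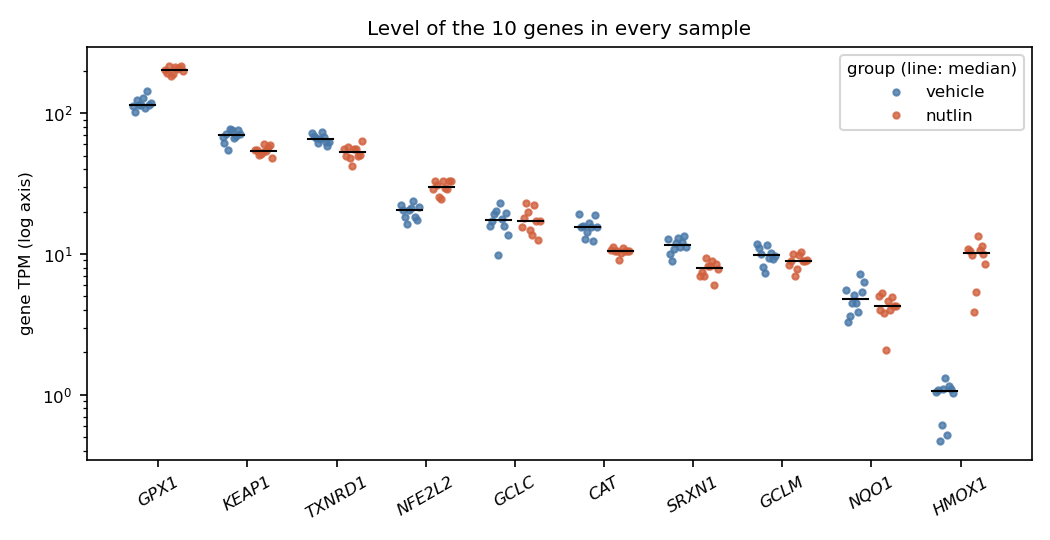
Gene TPM (vertical log axis) of the 10 genes in 10 vehicle (blue) and 10 nutlin (orange) samples, with a line at the median, ordered by the vehicle median. GPX1 is highest in both groups, and HMOX1 moves from the lowest place, at 1.07 TPM, to the level of CAT.

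Ordered by median TPM, vehicle cells held GPX1 at 115, KEAP1 at 70.4, TXNRD1 at 65.9, NFE2L2 at 20.6, GCLC at 17.4, CAT at 15.6, SRXN1 at 11.6, GCLM at 9.89, NQO1 at 4.81 and HMOX1 at 1.07. Neighbours whose ranges did not overlap were GPX1 and KEAP1, TXNRD1 and NFE2L2, GCLM and NQO1, and NQO1 and HMOX1. The ranges of the remaining neighbours overlapped, although CAT was above SRXN1 in all 10 vehicle samples. In nutlin cells HMOX1, at a median of 10.2 TPM, had moved from the last to the seventh place. Its range of 3.87 to 13.4 TPM spanned those of CAT, GCLM and SRXN1, which had medians of 10.5, 8.95 and 8.00 TPM. NQO1 took the last place at 4.25 TPM.

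Several genes shared the samples in which they were low. Nutlin replicates 4 and 6 were each among the 2 lowest nutlin samples for 6 of the 10 genes. Both were lowest for HMOX1 (5.61 and 9.502 CPM), NFE2L2 (53.02 and 63.1 CPM), NQO1 (3.56 and 2.34 CPM), GCLM (10.5 and 11.8 CPM) and TXNRD1 (119 and 114 CPM). For SRXN1 they were instead the 2 highest (22.8 and 22.5 CPM). The same replicates were also the 2 lowest nutlin samples for CDKN1A, at 1318 and 1542 CPM, although still far above the highest vehicle sample at 54.9 CPM. For MDM2 replicate 4 was lowest at 4797 CPM, but replicate 6 came after replicate 3 (5224 and 5190 CPM). Their part in the results was not tested beyond leaving both out, which gave an LFC of 3.88 for HMOX1, 0.63 for NFE2L2, 0.10 for NQO1 (adjusted p = 0.448) and -0.07 for GCLM, with still 4 SDE genes higher and 4 lower.

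The files give estimated counts per transcript, and 77 transcripts of the 10 genes were found in them. Of 65 that could be tested, 11 were SDE and higher and 6 SDE and lower, where 12.7% and 10.7% of all 119877 transcripts tested were (23.3% in either direction). Transcripts holding at least 10% of the TPM of their gene in either condition numbered 29, of which 5 were higher and 6 lower. The share among such transcripts of all genes was not computed, so these counts cannot be set against a background.

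For HMOX1 the difference lay on the protein-coding transcript. ENST00000216117 (chr22:35381096-35394207) had a mean of 0.647 TPM in vehicle and 9.03 TPM in nutlin samples (LFC 3.85 ± 0.22, adjusted p = 2.85e-12). The retained-intron transcript ENST00000494998 (chr22:35387040-35390293) stood at 0.240 and 0.180 TPM and did not pass (adjusted p = 0.798). CAT showed the converse arrangement. Its coding transcript ENST00000241052 (chr11:34438934-34472060) fell from 12.6 to 6.47 TPM (LFC -0.91 ± 0.065, adjusted p = 1.73e-10). The retained introns ENST00000528104 and ENST00000530343 had means of 1.41 and 0.834 TPM in vehicle and 2.003 and 1.09 TPM in nutlin samples, and neither passed. The coding transcript accordingly made up 80.7% of CAT TPM in vehicle and 62.0% in nutlin samples on average. In counts, which are not scaled by length, it had medians of 386 in vehicle and 210 in nutlin samples. ENST00000528104 rested on medians of only 3.57 and 6.15 counts and ENST00000530343 on 7.96 and 9.69 counts. The shares in TPM thus do not give the division of reads.

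Both main NFE2L2 transcripts were higher in nutlin samples. ENST00000397062 (chr2:177230308-177264727) rose from a mean of 10.02 to 14.4 TPM (adjusted p = 1.04e-05) and ENST00000397063 (chr2:177230305-177264141) from 5.47 to 9.51 TPM (adjusted p = 0.00142). These 2 transcripts start at neighbouring sites within the same gene and share most of their exons, so reads between them are divided by estimation. Of the KEAP1 transcripts, ENST00000393623 (chr19:10486126-10502896) fell from 37.4 to 28.3 TPM (adjusted p = 1.33e-06) and the retained intron ENST00000590237 (chr19:10486612-10489435) from 15.3 to 8.88 TPM (adjusted p = 0.0462). ENST00000171111, at 9.97 and 9.30 TPM, did not pass (adjusted p = 0.785). The KEAP1 core matches printed above lie within the span of ENST00000393623, near its start.

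**Figure D3:**
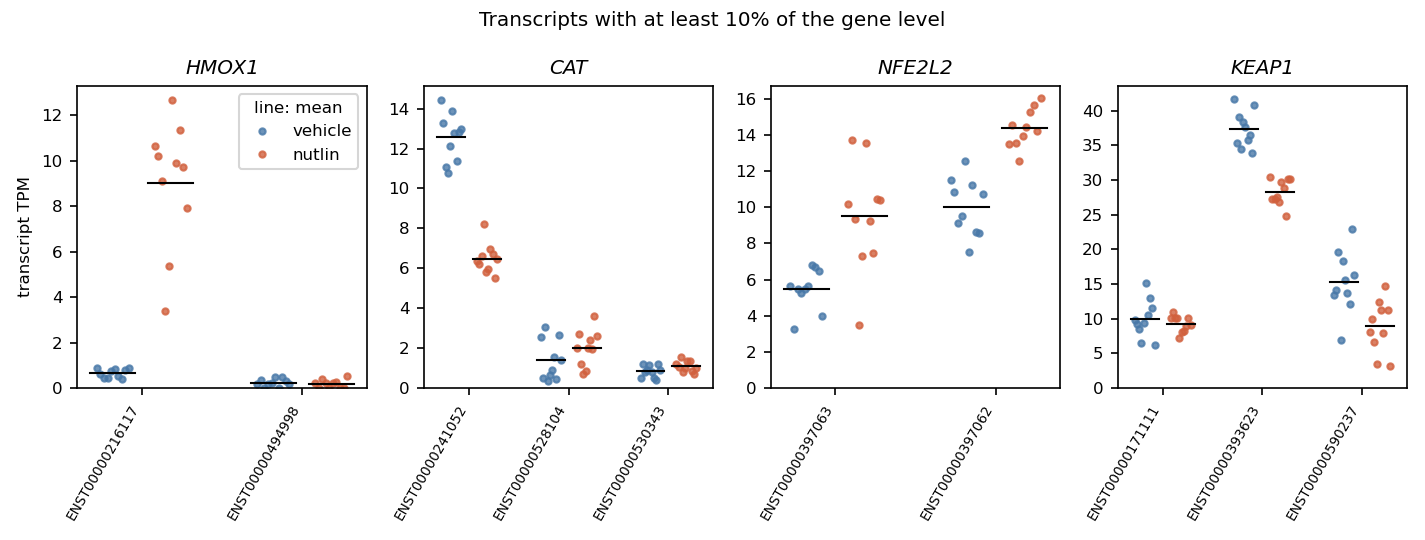
TPM (vertical axes) of the transcripts of HMOX1, CAT, NFE2L2 and KEAP1 that hold at least 10% of the TPM of their gene, in 10 vehicle (blue) and 10 nutlin (orange) samples, with a line at the mean. The coding transcript of HMOX1 goes from 0.647 to 9.03 TPM and that of CAT from 12.6 to 6.47 TPM, while the other transcripts plotted for HMOX1 and CAT did not pass the test.

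GPX1 was carried almost wholly by ENST00000419783, which rose from 115 to 195 TPM (adjusted p = 1.41e-08), and SRXN1 had a single transcript. TXNRD1 was spread over 5 transcripts of at least 10%, of which ENST00000503506 was SDE and lower (LFC -0.53 ± 0.19, adjusted p = 0.0406) and the others had LFC between -0.31 and -0.08. Of the GCLM transcripts ENST00000615724 was SDE and lower (LFC -0.33, adjusted p = 0.0255), and no NQO1 transcript passed.

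To place these genes in their pathways, 102 further genes in 11 lists were taken through the same fit. Of 101 tested, 36 were SDE and higher and 50 SDE and lower, with a median LFC of -0.15, where 34.8% and 45.3% of the genes averaging 1 CPM or more were. For 3 of them, GSS, ABCC2 and ABCC4, the canonical transcript was not among those matched.

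**Figure D4:**
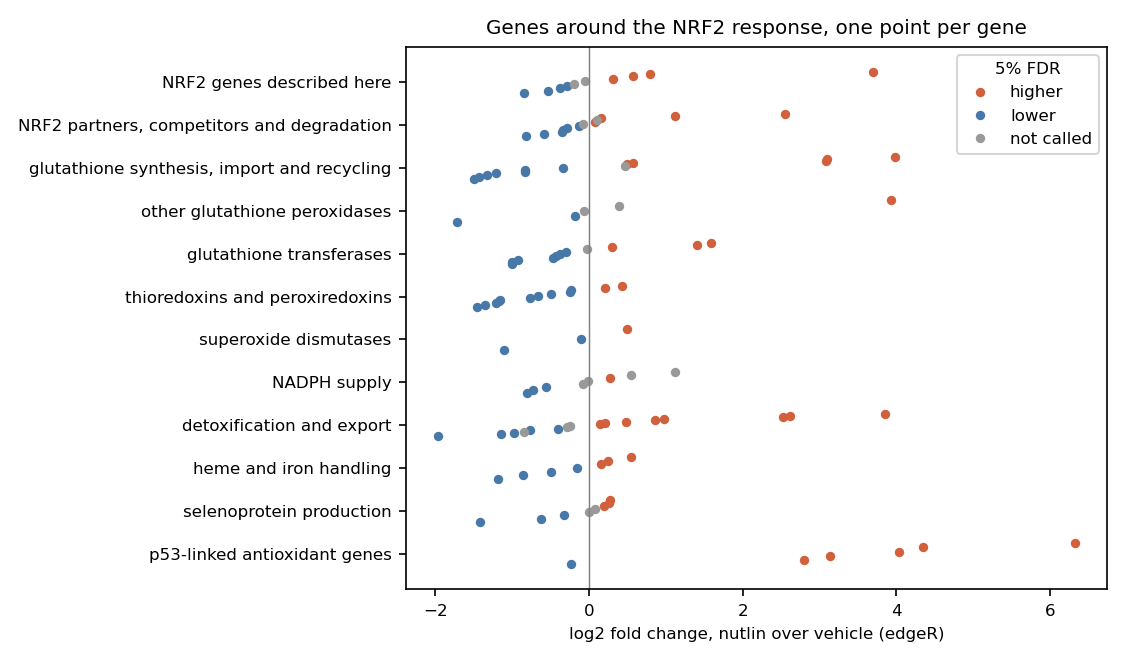
LFC of nutlin over vehicle (horizontal axis, edgeR), 1 point per gene, for the 10 genes and for 11 lists around them, in orange where SDE and higher, in blue where SDE and lower and in grey where not called at 5% FDR. The thioredoxins and peroxiredoxins lie mostly left of 0, with a median of -0.71, and the p53-linked antioxidant genes mostly right of it, with a median of 3.58.

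Among 12 partners, competitors and degradation factors of NRF2, 4 were higher and 6 lower. Both ligase components that act with KEAP1 were lower, CUL3 with an LFC of -0.59 ± 0.043 (adjusted p = 5.77e-13) and RBX1 with -0.81 ± 0.071 (adjusted p = 2.76e-11). BACH2, a repressor related to the one that competes with NRF2 at HMOX1, was SDE and higher (LFC 1.12 ± 0.46, adjusted p = 0.0379), but its samples ran from 0.244 to 15.3 CPM in vehicle and from 0.360 to 23.5 CPM in nutlin. MAFF and MAFG, small MAF partners of NRF2, had LFC of 0.10 and -0.08 and did not pass.

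The thioredoxin arm, to which TXNRD1 and SRXN1 belong, held more lower than higher genes. Of 12 thioredoxins and peroxiredoxins 10 were SDE and lower and 2 higher, with a median LFC of -0.71 against -0.08 over all genes of at least 1 CPM, of which 45.3% were SDE and lower. PRDX1, a cytosolic peroxiredoxin and itself an NRF2 target, ran from 690 through a median of 785 to 1000 CPM in vehicle and from 265 through 289 to 328 CPM in nutlin samples (LFC -1.46 ± 0.054, adjusted p = 4.20e-20). TXNIP, an inhibitor of thioredoxin, had an LFC of -1.35 ± 0.061, and PRDX4, the peroxiredoxin of the endoplasmic reticulum, one of -1.22 ± 0.059. None of these 3 genes had overlapping groups.

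The glutathione genes were divided. Of 13 genes of synthesis, import and recycling, 5 were higher and 7 lower. SLC7A11, the cystine importer and a shared target of NRF2 and ATF4, ran from 2.68 through a median of 5.53 to 6.68 CPM in vehicle and from 29.3 through 46.5 to 54.0 CPM in nutlin samples (LFC 3.08 ± 0.11, adjusted p = 1.30e-20). CHAC1, which degrades glutathione, had an LFC of 3.99 ± 0.31 (adjusted p = 1.67e-12), whereas its relative CHAC2 had one of -1.50 ± 0.11 (adjusted p = 3.54e-13). CHAC1 was low in vehicle samples, at 0 to 2.06 CPM, and ran from 5.62 to 15.7 CPM in nutlin samples. GSR, the glutathione reductase and a further NRF2 target, named here after its value was seen, had an LFC of -0.83 ± 0.038 (adjusted p = 6.99e-18).

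Of the other 5 glutathione peroxidases, 2 were lower, 1 higher and 2 did not pass. GPX3, the secreted form, had an LFC of -1.72 ± 0.14 (adjusted p = 1.02e-11) and GPX4, which reduces lipid peroxides, one of -0.18 ± 0.045 (adjusted p = 0.00118). Among the listed glutathione peroxidases of at least 1 CPM, GPX1 was thus the only 1 that was SDE and higher. Glutathione transferases were lower in 7 of 11 cases and higher in 3, with an LFC of -1.01 ± 0.072 for MGST3 and -0.92 ± 0.088 for GSTM4. GSTO1 had a median of 79.8 CPM in vehicle and 39.7 CPM in nutlin samples (SDE, adjusted p = 4.23e-13).

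SOD1, the cytosolic superoxide dismutase that makes hydrogen peroxide for the peroxidases, was lower by an LFC of -1.10 ± 0.056 (adjusted p = 8.13e-17), and the mitochondrial SOD2 by -0.11 ± 0.045 (adjusted p = 0.0399). CCS, the copper chaperone of SOD1, was higher by 0.50 ± 0.071 (adjusted p = 3.79e-07). SOD3 was not tested, since it did not have a count in each condition. Of 8 genes that supply NADPH, the reductant on which both arms depend, 3 were lower and 1 higher. TALDO1 had an LFC of -0.81 ± 0.048, ME2 of -0.72 ± 0.038 and IDH1 of -0.56 ± 0.052. PGD, which makes NADPH in the pentose phosphate pathway, did not pass (LFC -0.01).

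In the detoxification and export list 8 of 16 genes were higher and 5 lower. The largest differences were in AKR1C2 (LFC 3.85 ± 0.21), AKR1C1 (2.62 ± 0.15) and AKR1C3 (2.52 ± 0.10), aldo-keto reductases that reduce carbonyls and steroids and are known NRF2 targets in human cells. AKR1C2 was close to 0 in vehicle samples, at 0.0664 to 0.361 CPM, and ran from 1.98 to 3.74 CPM in nutlin samples. AKR1C1 ran from 0.361 to 1.24 CPM in vehicle and from 4.10 to 6.44 CPM in nutlin samples, and AKR1C3 from 3.69 to 8.60 and from 20.7 to 34.4 CPM. The genes are near-identical neighbours on chromosome 10, so the division of reads among them is uncertain.

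HMOX1 acts beside 7 listed genes of heme and iron handling, of which 3 were higher and 4 lower. FECH, which inserts iron into heme, had an LFC of -1.19 ± 0.061 (adjusted p = 1.03e-16), and BLVRA, which reduces the biliverdin that heme oxygenase makes, one of -0.86 ± 0.055 (adjusted p = 2.67e-14). FTL, the ferritin light chain, had an LFC of -0.49 ± 0.045 (adjusted p = 6.07e-11). The constitutive enzyme HMOX2, named here after its value was seen, had an LFC of -0.15 ± 0.046 (adjusted p = 0.00537). With HMOX2 all 4 lower genes of the list are named, whereas the 3 higher ones are not. The values printed thus show only the lower side of a list that was divided.

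Selenoproteins need their own machinery, and GPX1 and TXNRD1 are both selenoproteins. Of 8 genes of that machinery 3 were higher and 3 lower, the largest being SEPHS1 at an LFC of -1.42 ± 0.040 (adjusted p = 4.19e-23), followed by SCLY at -0.63 ± 0.054 and EEFSEC at -0.33 ± 0.058.

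Of 6 antioxidant genes known to be under p53 control, 5 were SDE and higher and 1 was SDE and lower, with a median LFC of 3.58. Among the genes of at least 1 CPM, 34.8% were SDE and higher and 45.3% SDE and lower. GLS2, a mitochondrial glutaminase that feeds glutathione synthesis, had an LFC of 6.33 ± 0.16, SESN2, which helps to release NRF2 from KEAP1, one of 4.34 ± 0.081, and TP53INP1 one of 4.03 ± 0.091. In each of these the nutlin samples lay above all vehicle samples, and each LFC was above that of HMOX1. GLS2 was close to 0 in vehicle samples, at 0 to 0.284 CPM, against 9.65 to 12.6 CPM in nutlin samples.

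Markers of other cell types were low and also higher in nutlin samples. The 9 listed markers summed to between 3.31 and 5.41 TPM in vehicle and between 12.04 and 18.7 TPM in nutlin samples. Of 6 that could be tested 4 were SDE and higher, against 32.3% of all genes, and only 2 of the 6 averaged 1 CPM or more. COL1A1, a fibroblast collagen, had a median of 9.16 CPM in vehicle and 35.5 CPM in nutlin samples. CD68, a marker of macrophages, in which HMOX1 is strongly expressed, had medians of 0.697 and 3.88 CPM. The leukocyte gene PTPRC stayed at 0 to 0.199 CPM in vehicle and 0 to 0.394 CPM in nutlin samples, and CD3E, ALB and HBB did not have a count in each condition. The part of these markers in the HMOX1 result was not tested.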

How the data were processed

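Poly(A) RNA of 10 vehicle and 10 nutlin samples of NGP cells was sequenced by the authors as stranded paired-end reads. The authors quantified transcripts with kallisto v0.42.4 on GRCh38 with Ensembl release 85, and deposited for each sample estimated counts, effective lengths and TPM. The estimated counts deposited by the authors are not normalized, and the TPM deposited by the authors are scaled by effective length and library size.

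Estimated counts of 191106 of 198968 transcripts (96.0%), matched by identifier to GENCODE 44, were summed per gene and rounded. Testing required 1 count or more from vehicle and from nutlin samples alike, which was met by 17351 mRNAs and 10346 lncRNAs. The quasi-likelihood F-test of edgeR 4.0.16 (R 4.3.3) was used after TMM scaling, with condition as its only term and 5% FDR. Transcripts were fitted alike. SE was the LFC divided by the square root of F. CPM used TMM library sizes, and TPM was used for levels, shares and ratios. The 2 ratios were compared by permutation tests.

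Named genes were all 10 members, the treatment check, and from each list the 3 SDE genes of at least 1 CPM with the largest LFC in size. Listed genes below 1 CPM or without a call could be named too. The members and lists were chosen with earlier results of these data known. Alternatives used DESeq2 1.42.0, limma 3.58.1, other filters and scaling, and subsets of samples. On simulated counts with 200 changed genes, edgeR recovered 78% at an LFC of 0.5 and 100% at 1 and above. Far fewer genes were changed there than the 58.8% called here, so recovery under so broad a change was not tested. Group and number came from the sample titles. The paper calls the samples biological replicates. Estimates by kallisto divide reads among transcripts that share sequence, so counts of overlapping genes are uncertain. The values of 1 listed gene are not reported here.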

Additional observations from a re-analysis of the deposited data

Results flagged for a closer look

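Among 24 groups of 10 samples tested for a sample apart from the others, 2 had one by Dixon's criterion on log2 values, and chance gives about 1 in 20. NFE2L2 in nutlin replicate 4 stood at 53.02 CPM, below the other nutlin samples at 63.1 to 73.3 CPM and above every vehicle sample, with a gap of 0.536 of the range on the log2 scale, against a critical value of 0.466, and of 0.496 on the CPM scale. GCLC in nutlin replicate 10 stood at 14.4 CPM, below the others at 17.0 to 20.01 CPM, with a gap of 0.506 of the range on the log2 scale. On the CPM scale the gap was 0.465, under the critical value.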

How the results depend on the processing

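NFE2L2, KEAP1, HMOX1, TXNRD1, SRXN1, GPX1 and CAT kept their direction and their call in all 12 other settings and in all 20 fits that left out 1 sample. Over the other settings HMOX1 ranged from an LFC of 3.37 to 3.88, CAT from -0.89 to -0.58, GPX1 from 0.78 to 0.87 and NFE2L2 from 0.56 to 0.64. The GCLC call was lost with the effective length offset (LFC 0.02, adjusted p = 0.931), which left 3 genes higher, while coding transcripts alone raised its LFC to 0.64 (adjusted p = 6.44e-05). NQO1 was never called, and its LFC turned positive with the filterByExpr filter (0.026) and without nutlin replicates 4 and 6 (0.10). Leaving out 1 sample moved it between -0.11 and 0.05, with values of 0.04 without vehicle replicate 10, 0.002 without vehicle replicate 12, 0.005 without nutlin replicate 4 and 0.047 without nutlin replicate 6. GCLM became SDE and lower without vehicle replicate 6 (LFC -0.22, adjusted p = 0.0473), without nutlin replicate 7 (-0.22, adjusted p = 0.0493) and with the replicate number as a block (-0.24, adjusted p = 0.0352).

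The GCLC to GCLM ratio passed when formed from CPM (log2 difference 0.53, permutation p = 0.00064), which does not scale by length. Across 8 shared replicate numbers, same-numbered samples had a mean correlation of -0.02, and in 0 of 8 cases was a sample most correlated with its own number, so the numbers do not pair the samples. With the replicate block 4 genes were higher and 5 lower, and 14276 of all genes were called, against 14992 in the same 16 samples without it. Under the block the NFE2L2 to KEAP1 log2 ratio differed by 0.90 (p = 0.00781, the smallest that exact sign flips can give) and the GCLC to GCLM ratio by 0.15 (exact sign-flip p = 0.398).

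The filterByExpr filter tested 16338 genes, so that the median LFC of all genes tested moved from 0.19 to 0.03, while the other scalings took it to at most 0.24. The 3 settings added after the data were seen were coding transcripts only, counts of pseudogenes and the read-through gene added, and nutlin replicates 4 and 6 left out, and all of them gave 4 genes higher and 4 lower. Depth limits HMOX1 in vehicle samples, which hold at most 24.2 counts, and NQO1, with at most 113 counts in any sample. Counts of 1 cell line at 1 dose do not extend to NRF2 protein.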
